A study of Mus musculus with 8 samples.

Results

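The large-vein-like endothelial cells (ECs) described here were 163 of the 5907 ECs, and of 8204 deposited cells, recovered from mouse mammary tumours by single-cell RNA sequencing. They were chosen by their transcripts. A cell was counted when it held transcripts of at least 1000 genes, of the endothelial adhesion molecule Pecam1 and of von Willebrand factor (Vwf), and of at least 3 of the 6 markers Cpe, Klk8, Olr1, Tmem108, Adh1 and Fmo2. Cells with 2 or more of the cell cycle genes Mki67, Top2a and Birc5 were left out. The 5907 ECs met the same limits on genes, Pecam1 and cell cycle genes, and the 5744 that were no large-vein-like cells are called other ECs below. The markers had been taken from earlier results of these same cells, so levels of these genes, and of any other gene against other ECs, are given as a description with no test.

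The study compared tumours that arose spontaneously in MMTV-PyMT mice, in which the mammary tumour virus promoter drives the polyoma middle T oncogene in mammary epithelium, with tumours grown from such tumour cells after short culture and implantation into the mammary fat pad. Tumours were injected with PBS or with cGAMP, the cyclic dinucleotide that activates the adaptor STING, and tumour ECs were sorted as CD31+ cells 3 h later. Each model and injection gave a group (implanted PBS, implanted cGAMP, spontaneous PBS and spontaneous cGAMP). The 4 groups held 2 libraries each, made from 2 adult female mice per group with the 10x Chromium 3′ v3 chemistry. All samples are labelled C57BL/6, but FVB is the background the methods give, a difference not resolved here, and whether a library held 1 mouse is not given in the sources used here.

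Veins return blood to the heart and differ from arteries and capillaries in their endothelium. Venous ECs are specified by the nuclear receptor COUP-TFII, encoded by Nr2f2, and store von Willebrand factor and P-selectin (Selp) in Weibel-Palade bodies, from which both are released on activation. The atypical chemokine receptor Ackr1 is known as a marker of venules, where leukocytes leave the blood. Larger veins have an elastic layer under the endothelium, and their ECs are exposed to steadier flow than those of capillaries. cGAMP acts through STING, TBK1 and IRF3 to induce type I interferon and, through NF-kB, inflammatory cytokines.

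The libraries held 7863535 to 16506086 transcript molecules, counted as unique molecular identifiers (UMIs). Median depth per cell was 8803.5 to 13148 UMIs in 7 libraries and 2014 UMIs in implanted cGAMP replicate 1, in which 54.7% of the cells reached 1000 genes against 84.8 to 91.5% in the others. Pairs of libraries shared 0 to 3 cell barcodes. Large-vein-like cells had median depths of 11749 and 10991 UMIs in the spontaneous PBS libraries and 15025 and 17442 UMIs in the spontaneous cGAMP libraries. In the implanted tumours they had 11944 and 13449.5 UMIs after PBS, against 18912 and 31285 UMIs after cGAMP. The large-vein-like cells of treated tumours were thus the deeper ones in both models. Other ECs had 10013.5 and 10951 UMIs after PBS and 12904 and 15259.5 UMIs after cGAMP in spontaneous tumours. In implanted tumours other ECs had 14221 and 13434 UMIs after PBS and 7860 and 15448.5 UMIs after cGAMP. Large-vein-like cells thus stood furthest above other ECs in depth in the implanted cGAMP libraries. Fewer cells of a type and less RNA per cell cannot be told apart in the shares that follow.

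Spontaneous PBS libraries held 16 and 8 large-vein-like cells, 1.96% and 1.49% of their ECs. After cGAMP the spontaneous libraries held 3 cells each, 0.473% and 0.472%, each with a Wilson 95% interval of 0.161 to 1.38%. The implanted PBS libraries held 47 and 66 cells, 5.75% and 7.26%, and the implanted cGAMP libraries 13 and 7 cells, 1.30% and 1.26%. Group means were thus 1.72% ± 0.330 (SD, n = 2) and 0.473% ± 0.000527 in spontaneous tumours and 6.50% ± 1.07 and 1.28% ± 0.0265 in implanted tumours, and both PBS libraries lay above both cGAMP libraries in each model. Intervals cover counting error only. No test was made of the shares, since the rule reads genes that were themselves lower after cGAMP. In spontaneous tumours Vwf was above 0 in 43.8% of ECs after PBS and 36.0% after cGAMP, and in implanted tumours in 45.3% and 27.5% (means of the 2 libraries). With each cell thinned to 2000 UMIs, which removes differences in depth, the shares were 0.782%, 0.0791%, 2.14% and 0.0538% in the same order. They rested on few cells: 5 and 5, 1 and 0, 16 and 21, and 1 and 0 in the libraries of each group.

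**Figure D1:**
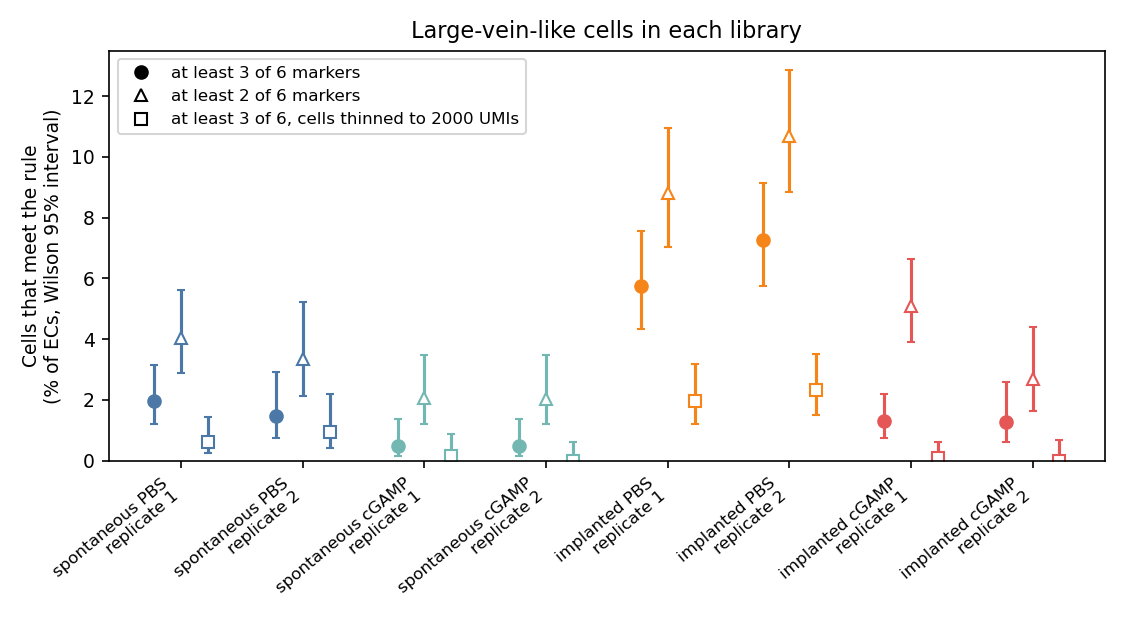
Share of ECs that met the rule (y axis, % of ECs) in each of the 8 libraries (x axis), under the rule of at least 3 markers (filled circles), under the looser rule of at least 2 markers (triangles) and after thinning each cell to 2000 UMIs (squares), with Wilson 95% intervals for counting error. The implanted PBS libraries stood highest at 5.75% and 7.26%, and in both models the cGAMP libraries lay below the PBS libraries under the rule of 3 markers.

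The markers divided the cells gradually. Of the 163 cells, 72 held exactly 3 of the 6 markers, 52 held 4, 29 held 5 and 10 held all 6. Just outside the rule, 149 cells with Vwf held exactly 2 markers, 597 held 1 and 1379 held none. Their median depths were close, at 15104 UMIs for cells with 2 markers and 12349 UMIs for cells with 3. Cpe, a carboxypeptidase that trims peptide hormones (Cpe, chr8:64592542-64693054, minus strand, GRCm38), was found in 94.5% of large-vein-like cells and 9.92% of other ECs. The flavin monooxygenase Fmo2 (chr1:162874317-162898726, minus strand) was found in 77.9% of large-vein-like cells, and the serine protease Klk8 (chr7:43797577-43803826, plus strand) in 71.2% of them and 4.23% of other ECs. The alcohol dehydrogenase Adh1 (chr3:138260991-138290698, plus strand) was found in 58.3% and 2.39%, the oxidised LDL receptor Olr1 (chr6:129485244-129507165, minus strand) in 52.1% and 1.41%, and Tmem108 (chr9:103482947-103761837, minus strand) in 31.9% and 1.22%. Vwf (chr6:125546774-125686679, plus strand) was in all members by the rule and in 37.0% of other ECs.

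Levels below are mean CPM, the UMIs of a gene per 1000000 UMIs of a cell, over the large-vein-like cells of a library, and fold differences were taken on log2(CPM + 5), which understates changes of low genes. Of the 3650 genes with at least 50 CPM on either side, 264 (7.23%) were higher in large-vein-like cells than in other ECs of the same library in 8 of 8 libraries, and 366 (10.0%) were lower in 8 of 8. Of the 12 venous genes, 9 were higher in 8 of 8 libraries and none was lower in 8 of 8, with a median log2 difference of 1.43. Ackr1 was at 688 and 676 CPM after PBS and 1605 and 1105 CPM after cGAMP in spontaneous tumours, and at 548 and 659 CPM after PBS and 1754 and 687 CPM after cGAMP in implanted tumours, a median of 4.94-fold above other ECs. Every one of these 8 levels exceeded that of the other ECs in the same library. Selp (chr1:164115264-164150026, plus strand), the P-selectin gene, was at 618 and 656 CPM after PBS and 747 and 379 CPM after cGAMP in spontaneous tumours, and at 1038 and 828 CPM after PBS and 664 and 1344 CPM after cGAMP in implanted tumours, 3.52-fold above. The proteoglycan Bgn was 6.79-fold higher, the prostaglandin transporter Slco2a1 2.97-fold, Nr2f2 2.72-fold, Lrg1 2.68-fold, the adhesion molecule Icam1 3.18-fold, the ephrin receptor Ephb4 1.85-fold and the neuropilin Nrp2 1.58-fold higher.

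Many genes that mark other vessel types were lower than in other ECs, though not the lists as sums. In the arterial list, 8 of 14 genes were lower in 8 of 8 libraries and none was higher, among them the connexins Gja4 and Gja5, the Notch pathway genes Hey1 and Dll4, and Efnb2, Sox17, Sema3g and Unc5b. Gja4 had a median of 6.94 CPM in large-vein-like cells, 281 CPM in other ECs and 949 CPM in 1615 artery-like cells, which held at least 3 of 6 arterial markers. Capillary genes were lower in 8 of 8 libraries for 4 of 8 genes, Rgcc, the lipase anchor Gpihbp1, Cd300lg and Btnl9. Gpihbp1 had medians of 17.1 CPM and 916 CPM in other ECs. The fatty acid binding gene Fabp4 did not separate the cells, being higher in 4 libraries and lower in 4. Summed capillary markers in the implanted PBS libraries were 9835 to 11298 CPM in large-vein-like cells and 7638 to 7714 CPM in other ECs, and summed arterial markers in the spontaneous PBS libraries 2901 to 2978 CPM and 2515 to 2725 CPM. Of the 10 tip-cell genes, 7 were lower in 8 of 8 libraries, and the tight junction gene Cldn5 had medians of 39.3 CPM against 811 CPM. At the same time, 152 of the 163 cells held transcripts of at least 3 genes of the arterial list, which includes Mgp, Clu, Fbln5 and Stmn2. The calibre of the vessels was not measured, so "large-vein-like" names the marker set only.

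The large-vein-like cells also differed from venule-like cells, 1724 ECs outside the rule with at least 2 of Selp, Ackr1 and Lrg1. The median Ackr1 level was 687 CPM against 565 CPM in venule-like cells and 4.54 CPM in artery-like cells. Since venule-like cells were chosen in part by Ackr1, its level cannot show whether they differ from large-vein-like cells. Serpina3n, an acute-phase serine protease inhibitor (chr12:104406729-104414329, plus strand), was not used to choose either. It was at 341 and 555 CPM after PBS and 957 and 1013 CPM after cGAMP in spontaneous tumours. In implanted tumours it was at 195 and 166 CPM after PBS and 765 and 669 CPM after cGAMP. Other ECs lay between 19.9 and 120 CPM, a median difference of 12.8-fold, and venule-like cells had a median of 96.6 CPM. ECs with exactly 2 markers were intermediate, at 168 CPM.

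Among the 12 genes with the largest positive differences outside the rule were Serpina3n, the serotonin receptor Htr2b (12.4-fold), Samd5 (10.5-fold), the cathepsin Ctsh (9.47-fold), histidine decarboxylase Hdc (8.73-fold), the lipopolysaccharide binding protein Lbp (8.20-fold), Tmem158 (7.76-fold), Amigo2 (7.68-fold), the platelet activating factor hydrolase Pla2g7 (7.21-fold), the transcription factor Gata6 (7.16-fold) and Pcdh7 (7.02-fold). Hdc, which makes histamine, had a median of 452 CPM against 45.3 CPM in other ECs and 126 CPM in venule-like cells. Lbp had 870 CPM against 105 CPM and 244 CPM. The 12 largest negative differences were of Ccl21a, Igfbp3, Rbp7, Gpihbp1, Rgcc, Gja4, Sema3g, Sema7a, Kcne3, Nes, Cldn5 and Esm1. Many of these were at 0 UMIs in several libraries, for which the fold depends on the pseudocount, so levels are given: the lymphatic chemokine Ccl21a had medians of 0 CPM and 439 CPM, the growth factor binding gene Igfbp3 19.8 and 1677 CPM, and Rgcc 5.26 and 334 CPM.

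**Figure D2:**
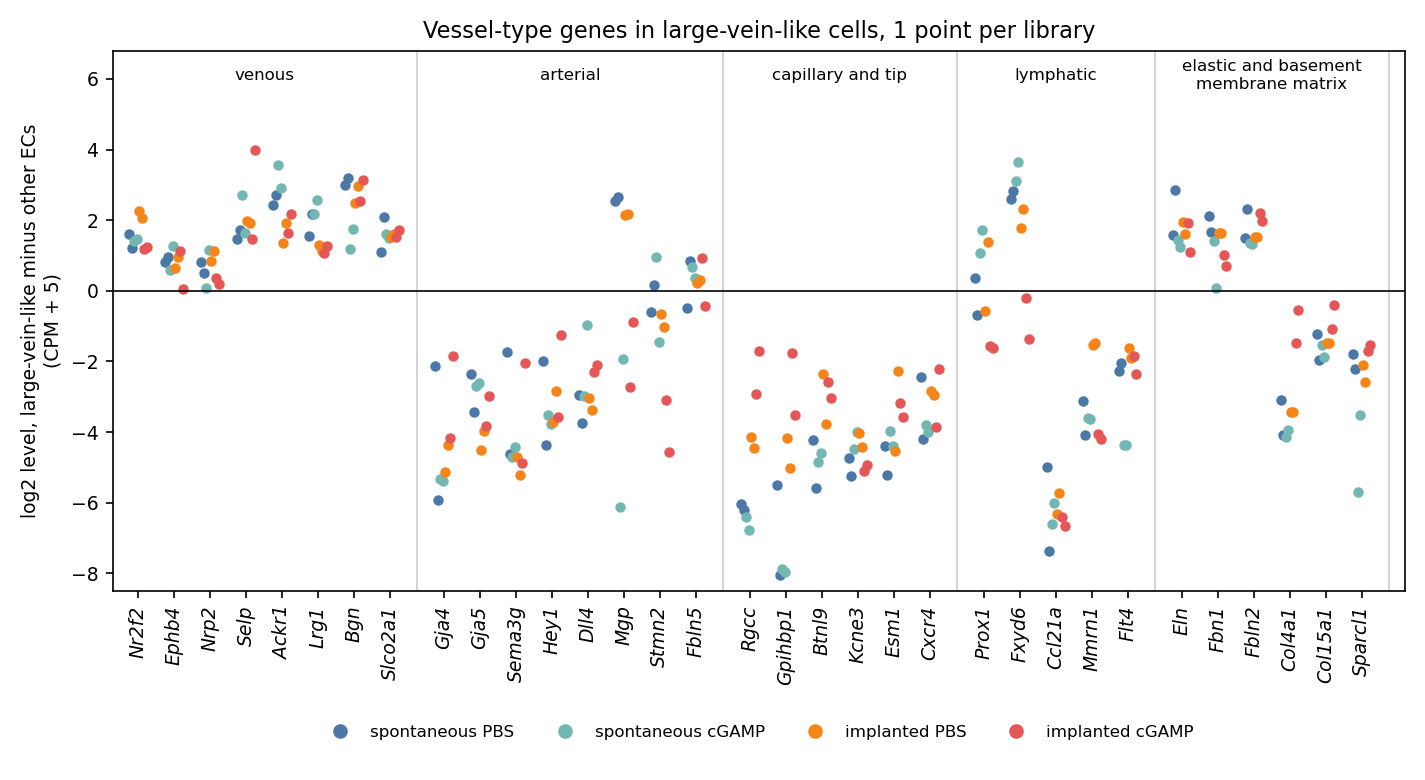
Difference in log2(CPM + 5) between large-vein-like cells and other ECs of the same library (y axis) for genes of venous, arterial, capillary, tip, lymphatic and matrix lists (x axis), 1 point per library coloured by group. Venous genes such as Ackr1 and Bgn lay above 0 in 8 of 8 libraries, Gja4, Rgcc, Ccl21a and Col4a1 lay below 0 in 8 of 8, and Mgp lay above 0 in the 4 PBS libraries and below 0 in the 4 cGAMP libraries.

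Of the 18 matrix genes, 5 were higher in 8 of 8 libraries and 9 were lower in 8 of 8. The elastin gene Eln was at 476 and 965 CPM after PBS and 138 and 107 CPM after cGAMP in spontaneous tumours, and at 1002 and 898 CPM after PBS and 349 and 151 CPM after cGAMP in implanted tumours, a median of 3.02-fold above other ECs. Eln was thus higher in the PBS libraries than in the cGAMP libraries of the same model. Fbln2 was 2.89-fold, Fbn1, which encodes the microfibril protein fibrillin, 2.87-fold and Emilin1 2.73-fold higher, each in 8 of 8 libraries. Ltbp4, whose product binds elastic fibres, was higher in 4 libraries and lower in 4. Col4a1, a collagen chain of basement membranes, was at 387 and 220.0 CPM after PBS and 165 and 197 CPM after cGAMP in spontaneous tumours, and at 302 and 267 CPM after PBS and 715 and 1528 CPM after cGAMP in implanted tumours, while other ECs lay between 2002 and 3776 CPM, a median log2 difference of -3.43. Col4a2 differed by -3.10 and Sparcl1 by -2.17. Of 18 haemostasis genes, 5 were higher in 8 of 8 libraries and none was lower in 8 of 8. Endothelin (Edn1) was 4.79-fold, the protein C receptor Procr 4.40-fold and the cyclooxygenase Ptgs1 5.60-fold higher. Ednrb, a receptor for endothelin, differed by -2.08 on the log2 scale.

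Other lists showed a mixed picture. Of 21 type I interferon genes, 15 were lower in large-vein-like cells in 8 of 8 libraries and none was higher in 8 of 8, and of 9 chemokines, Ccl21a, Cxcl9, Cxcl10 and Cxcl12 were lower. Among 13 leukocyte adhesion genes, Selp, Icam1, Ackr1 and Jam2 were higher and Glycam1 and Cd34 lower. Of 15 cell death and survival genes, the TNF receptor gene Tnfrsf1a was 1.76-fold higher, and the caspase gene Casp8 differed by -0.77 on the log2 scale. None of 14 antigen presentation genes lay on 1 side in 8 of 8 libraries.

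Markers of other cell types were checked in the same cells. Csf1r and Itgam of myeloid cells, Lum and Pdgfra of fibroblasts, Krt14 of basal epithelium and the platelet genes Ppbp, Gp9, Gp6, Treml1 and Gp1ba were at 0 UMIs in all 163 cells. Summed immune markers reached 0 to 46.1 CPM per library and summed platelet markers 11.6 to 88.0 CPM. At least 2 markers of another cell type were found in 110 cells, most often lymphatic (66 cells), epithelial (52 cells) or mural (17 cells). By library this was 57.4 to 100% of large-vein-like cells and 37.4 to 72.7% of other ECs. Prox1, the regulator of lymphatic fate, was detected in 63 of the 163 cells, its companion Fxyd6 in 114 and both in 51. Only 6 of those 51 also held Lyve1, Ccl21a or Pdpn, which mark lymphatic ECs, and summed lymphatic markers were 75.9 to 517 CPM in large-vein-like cells and 519 to 1851 CPM in other ECs. No caller of doublets was run. Of the large-vein-like cells, 5 were among the 5% of cells with the most UMIs of their library.

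The large-vein-like cells were not uniform. Among the 47 and 66 cells of the implanted PBS libraries, some genes went together over cells: Pearson's r was 0.74 and 0.52 for Eln with Fbln2 and 0.56 and 0.65 for Eln with Stmn2, which encodes a neuronal microtubule regulator. A second set held Ackr1, Selp and Serpina3n, with r of 0.42 and 0.51 for Ackr1 with Selp, 0.51 and 0.59 for Selp with Serpina3n and 0.40 and 0.50 for Ackr1 with Serpina3n. Between the sets r was below 0 in both libraries for pairs with Selp or Serpina3n, as for Fbln2 with Selp (-0.09 and -0.39) and Eln with Selp (-0.24 and -0.38). With Ackr1 the libraries differed in sign, at 0.28 and -0.20 for Fbln2, 0.15 and -0.04 for Stmn2 and 0.12 and -0.01 for Eln. Mgp, the calcification inhibitor matrix Gla protein, gave -0.17 and -0.55 with Ackr1. The cells of 1 library share their depth and their mouse or mice, so these values describe the 2 libraries.

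**Figure D3:**
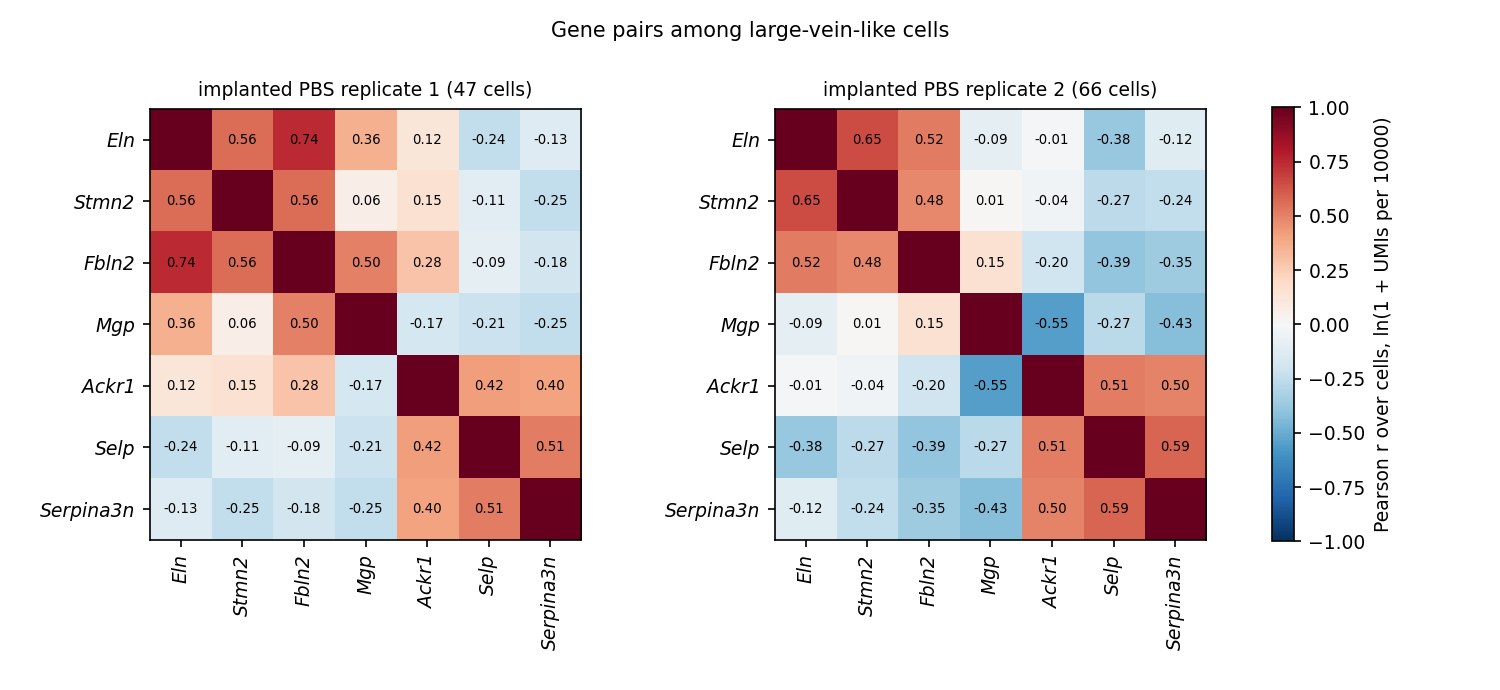
Pearson's r over single cells between pairs of genes (rows and columns) in the large-vein-like cells of implanted PBS replicate 1 (47 cells) and replicate 2 (66 cells), from ln(1 + UMIs per 10000). Eln, Stmn2 and Fbln2 formed a block of positive values from 0.48 to 0.74, and Ackr1, Selp and Serpina3n a block from 0.40 to 0.59, in both libraries.

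The response to cGAMP was tested over libraries, since the rule did not use the treatment. In implanted tumours the treated large-vein-like cells carried far more interferon-stimulated and chemokine transcripts and far fewer transcripts of Mgp, Stmn2 and Cytl1 than cells of PBS-injected tumours. With limma over 7107 genes and 6 libraries, 43 genes (0.605%) were higher and 41 (0.577%) lower after cGAMP at an adjusted p under 0.05, and 934 passed at an unadjusted p under 0.05. The spontaneous cGAMP libraries, with 3 cells each, were left out of this fit. The number of calls rested on single libraries: it was 10 without implanted PBS replicate 1, 5 without implanted PBS replicate 2, 8 without implanted cGAMP replicate 1 and 4 without implanted cGAMP replicate 2, and 234 and 225 without spontaneous PBS replicate 1 or 2, and in each of these fits at least 70 of the 84 genes had the same direction. Vwf, Cpe, Fmo2 and Adh1 of the rule are counted among the 41 lower genes and the 84 calls, here and below. Their log2 fold changes were -1.86, -1.72, -1.86 and -2.14. These are a description only, since the rule itself read these genes in every cell. Whether the same vessels lowered these genes or other cells met the rule after cGAMP cannot be told apart.

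Of 21 type I interferon genes tested, 14 rose after cGAMP in implanted tumours and none fell, with a median log2 fold change of 3.23 against -0.06 over all genes. Rsad2, the antiviral radical enzyme viperin (chr12:26442746-26456452, minus strand), was at 0 and 0 CPM in the PBS libraries and 886 and 411 CPM in the cGAMP libraries. No UMI was found in 113 cells after PBS and 442 UMIs in 12 of 20 cells after cGAMP, a level at least 333-fold higher against a limit of 3 UMIs over the PBS cells (adjusted p = 0.0024, limma). Irf7, the transcription factor that amplifies interferon induction, rose from 45.4 and 23.5 to 1219 and 1008 CPM (log2 fold change 4.88 ± 0.61, adjusted p = 0.0072). The libraries did not overlap for either gene, as was so for 1640 higher and 1926 lower genes of the 7107 tested. Both genes were named by a rule that asked for this. Isg15, a ubiquitin-like modifier, rose from 126 and 94.3 to 1516 and 1192 CPM (log2 fold change 3.56 ± 0.43, adjusted p = 0.0072), and the virion tether Bst2 from 172 and 124 to 1884 and 1872 CPM (log2 fold change 3.64 ± 0.28, adjusted p = 3.8e-04). Ifit1, which binds foreign RNA, rose by 3.93 ± 0.49 on the log2 scale.

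The 250 bases before the annotated start of 5 of these genes are shown because they differ in where they hold the motif of GAAA, any 2 bases and GAAA, the core of sites bound by interferon-induced factors. Sequences are RefSeq promoters of build GRCm38.p6, given 5′ to 3′ on the strand of the gene, with matches to the motif on either strand in capitals. Rsad2 (chr12:26456453-26456702, minus strand) held 1 match that begins 120 bases upstream of the start, and Isg15 (chr4:156200819-156201068, minus strand) 3 overlapping matches from 78 to 66 bases upstream. Ifit1 (chr19:34640639-34640888, plus strand) held matches at 104 and 85 bases, Bst2 (chr8:71537473-71537722, minus strand) overlapping matches at 130 and 124 bases, and the chemokine gene Cxcl10 (chr5:92348890-92349139, minus strand) 1 match at 213 bases.
Rsad2: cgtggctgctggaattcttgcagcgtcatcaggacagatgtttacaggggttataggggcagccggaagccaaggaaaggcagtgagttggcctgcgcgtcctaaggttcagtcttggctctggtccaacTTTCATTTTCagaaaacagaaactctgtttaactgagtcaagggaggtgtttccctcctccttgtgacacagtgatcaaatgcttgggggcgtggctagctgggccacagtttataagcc
Isg15: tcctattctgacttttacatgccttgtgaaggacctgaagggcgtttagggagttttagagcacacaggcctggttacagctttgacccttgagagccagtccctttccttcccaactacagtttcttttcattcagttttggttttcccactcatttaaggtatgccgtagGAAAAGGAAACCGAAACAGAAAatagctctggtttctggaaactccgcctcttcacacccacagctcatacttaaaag
Ifit1: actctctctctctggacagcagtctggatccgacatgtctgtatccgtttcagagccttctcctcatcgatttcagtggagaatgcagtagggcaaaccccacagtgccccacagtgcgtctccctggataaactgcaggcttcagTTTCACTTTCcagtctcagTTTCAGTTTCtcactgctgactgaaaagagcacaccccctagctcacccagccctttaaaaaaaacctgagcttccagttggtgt
Bst2: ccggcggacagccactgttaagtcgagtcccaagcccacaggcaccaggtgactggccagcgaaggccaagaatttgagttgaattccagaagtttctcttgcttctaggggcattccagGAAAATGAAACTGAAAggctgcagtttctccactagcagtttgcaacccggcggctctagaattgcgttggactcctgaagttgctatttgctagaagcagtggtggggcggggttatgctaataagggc
Cxcl10: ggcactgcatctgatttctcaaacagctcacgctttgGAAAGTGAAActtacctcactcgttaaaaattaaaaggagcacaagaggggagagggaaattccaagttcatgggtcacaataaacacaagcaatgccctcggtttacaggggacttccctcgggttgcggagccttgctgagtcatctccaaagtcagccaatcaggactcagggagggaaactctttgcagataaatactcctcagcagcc

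Of 27025 genes with a promoter window of the same length, 936 (3.46%) held the motif in at least 1 window. These are all genes with an entry and not only those tested here. Of the 43 genes higher in implanted large-vein-like cells after cGAMP, 33 had an entry and 10 of these, 30.3%, held it, against 1 of 29 matched genes (3.45%) among those that fell. Under the looser rule described below, 30 of 149 matched genes (20.1%) higher after cGAMP in spontaneous tumours held it. The windows of Irf7 and Cxcl9 held no match, and neither did those of the 7 genes with an entry among the 12 leading large-vein genes. A match is a string of letters and not a bound site.

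Chemokines formed the second group that rose, with 4 of 8 genes higher and none lower (median log2 fold change 2.21). Ccl5, which draws T cells and monocytes (chr11:83525778-83530518, minus strand), was at 0 and 2.65 CPM after PBS and 1371 and 1080.4 CPM after cGAMP (log2 fold change 7.63 ± 0.47, adjusted p = 7.1e-05). Only 2 UMIs were found in 113 cells after PBS, and 778 UMIs in 16 of 20 cells after cGAMP, so that its fitted fold depends on the pseudocount of 5 CPM. Cxcl9, a ligand of the T cell receptor Cxcr3, rose from 75.4 and 12.6 to 787 and 1365 CPM (log2 fold change 4.79 ± 0.63, adjusted p = 0.010), and Cxcl10 (chr5:92346638-92348889, minus strand), of the same family, from 91.9 and 13.3 to 779.9 and 326 CPM (log2 fold change 3.60 ± 0.72, adjusted p = 0.049). The monocyte chemokine Ccl2 was uneven, at 0 and 2.66 CPM after PBS and 74.0 and 1191 CPM after cGAMP (log2 fold change 5.63 ± 1.06, adjusted p = 0.047). Its 296 UMIs after cGAMP came from 9 of 20 cells.

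Of 14 antigen presentation genes tested, 3 rose, none fell and 11 were not called, with a median over the list of 1.21. The class I heavy chain H2-K1 was at 2392 and 1814 CPM after PBS and 5069 and 6534 CPM after cGAMP (log2 fold change 1.46 ± 0.27, adjusted p = 0.046), B2m, its light chain, rose by 1.22 ± 0.23, and the peptide loading gene Tapbp by 1.22 ± 0.24. Class II transcripts were present but their difference was not called, as for Cd74 at 349 and 101 and 383 and 606 CPM (adjusted p = 0.33, limma).

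Genes of the haemostatic and matrix programmes moved singly. Among 18 haemostasis genes, Cd63, a membrane protein of Weibel-Palade bodies, rose from 143 and 152 to 559 and 559 CPM (log2 fold change 1.89 ± 0.23, adjusted p = 0.0072) and the urokinase receptor Plaur rose by 2.19 ± 0.42 (0.048 as adjusted p, limma). The TAM receptor ligand Gas6 fell from 241 and 309 to 54.9 and 4.57 CPM (log2 fold change -3.54 ± 0.69, adjusted p = 0.049). In the matrix list, Col4a1 rose from 302 and 267 to 715 and 1528 CPM (log2 fold change 1.86 ± 0.37, adjusted p = 0.049), while Mgp and the latent TGF-beta binding gene Ltbp4 (-1.90 ± 0.33) fell. Eln was at 1002 and 898 CPM after PBS and 349 and 151 CPM after cGAMP and just missed the threshold (log2 fold change -2.02 ± 0.41, adjusted p = 0.0505). Serpina3n, the leading large-vein gene, rose further (log2 fold change 1.96 ± 0.27, adjusted p = 0.012).

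Mgp (chr6:136872435-136875823, minus strand) fell from 1335 and 1248 CPM to 36.1 and 51.8 CPM (log2 fold change -4.75 ± 0.23, adjusted p = 1.8e-05), the smallest adjusted p of the comparison. In the spontaneous libraries it was at 1161 and 1252 CPM after PBS and 0 and 64.4 CPM after cGAMP. Every PBS library of either model stood above 1100 CPM and every cGAMP library below 65 CPM. Stmn2 fell from 236 and 261 to 8.13 and 0 CPM (log2 fold change -4.97 ± 0.44, adjusted p = 0.0011), and its 2 remaining UMIs lay in 1 of 20 cells. Cytl1, which encodes a small secreted protein, fell from 722 and 862 to 60.9 and 50.8 CPM (log2 fold change -3.71 ± 0.39, adjusted p = 0.0032) and Fxyd6, a subunit that modulates the sodium pump, from 267 and 281 to 29.8 and 17.8 CPM (log2 fold change -3.30 ± 0.36, adjusted p = 0.0041). The monooxygenase Fmo1 and the heparin-binding growth factor Ptn fell as well, with log2 fold changes of -2.98 and -3.21 (adjusted p = 0.012 and 0.046, limma).

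None of 12 venous, 12 leukocyte adhesion, 15 NF-kB target, 15 cell death or 12 shear and nitric oxide genes passed the test in either direction. Their medians were -0.24, -0.06, -0.02, 0.33 and -0.34. Over all genes 84 of 7107 (1.18%) were called, so the absence of calls in lists this short says little about them. Under the looser rule of at least 2 markers described below, Ackr1 was called higher (log2 fold change 1.10 ± 0.25, adjusted p = 0.025) and Slco2a1 lower (log2 fold change -1.33 ± 0.22, adjusted p = 0.0033), as were Ednrb and Ptgs1 of the shear and nitric oxide list. Under that rule 25 of 72 and 31 of 97 cells after PBS held exactly 2 markers, against 38 of 51 and 8 of 15 after cGAMP. The part of this shift in these calls was not tested. With at least 3 markers, Selp was at 1038 and 828 CPM after PBS and 664 and 1344 CPM after cGAMP (log2 fold change 0.03 ± 0.31). Its treated libraries thus lay on both sides of the PBS libraries. Ackr1 was at 548 and 659 and 1754 and 687 CPM (log2 fold change 0.86 ± 0.37, adjusted p = 0.35), and the adhesion molecule Vcam1 at 392 and 277 and 477 and 899 CPM (log2 fold change 0.98 ± 0.39, adjusted p = 0.32).

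Transcripts of mural cells moved with the treatment. Rgs5, a marker of pericytes, was called as higher, at 3.42 and 0 CPM after PBS and 79.2 and 153 CPM after cGAMP (log2 fold change 4.15 ± 0.72, adjusted p = 0.034), with 66 UMIs in 4 of 20 cells. Under the looser rule it was not called (log2 fold change 2.17 ± 1.32, adjusted p = 0.57), and none of 9 mural genes was. Summed mural markers were 395 to 433 CPM per library after PBS and 484 to 1080 CPM after cGAMP, summed fibroblast markers 17.8 to 105 and 36.6 to 175 CPM, and summed lymphatic markers 364 to 461 and 75.9 to 81.1 CPM. The part of these transcripts, and of the greater depth of treated cells, in the results above was not tested. Without the 5% of cells with the most UMIs 45 genes were called, and with every cell thinned to 2000 UMIs 1 gene was called.

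**Figure D4:**
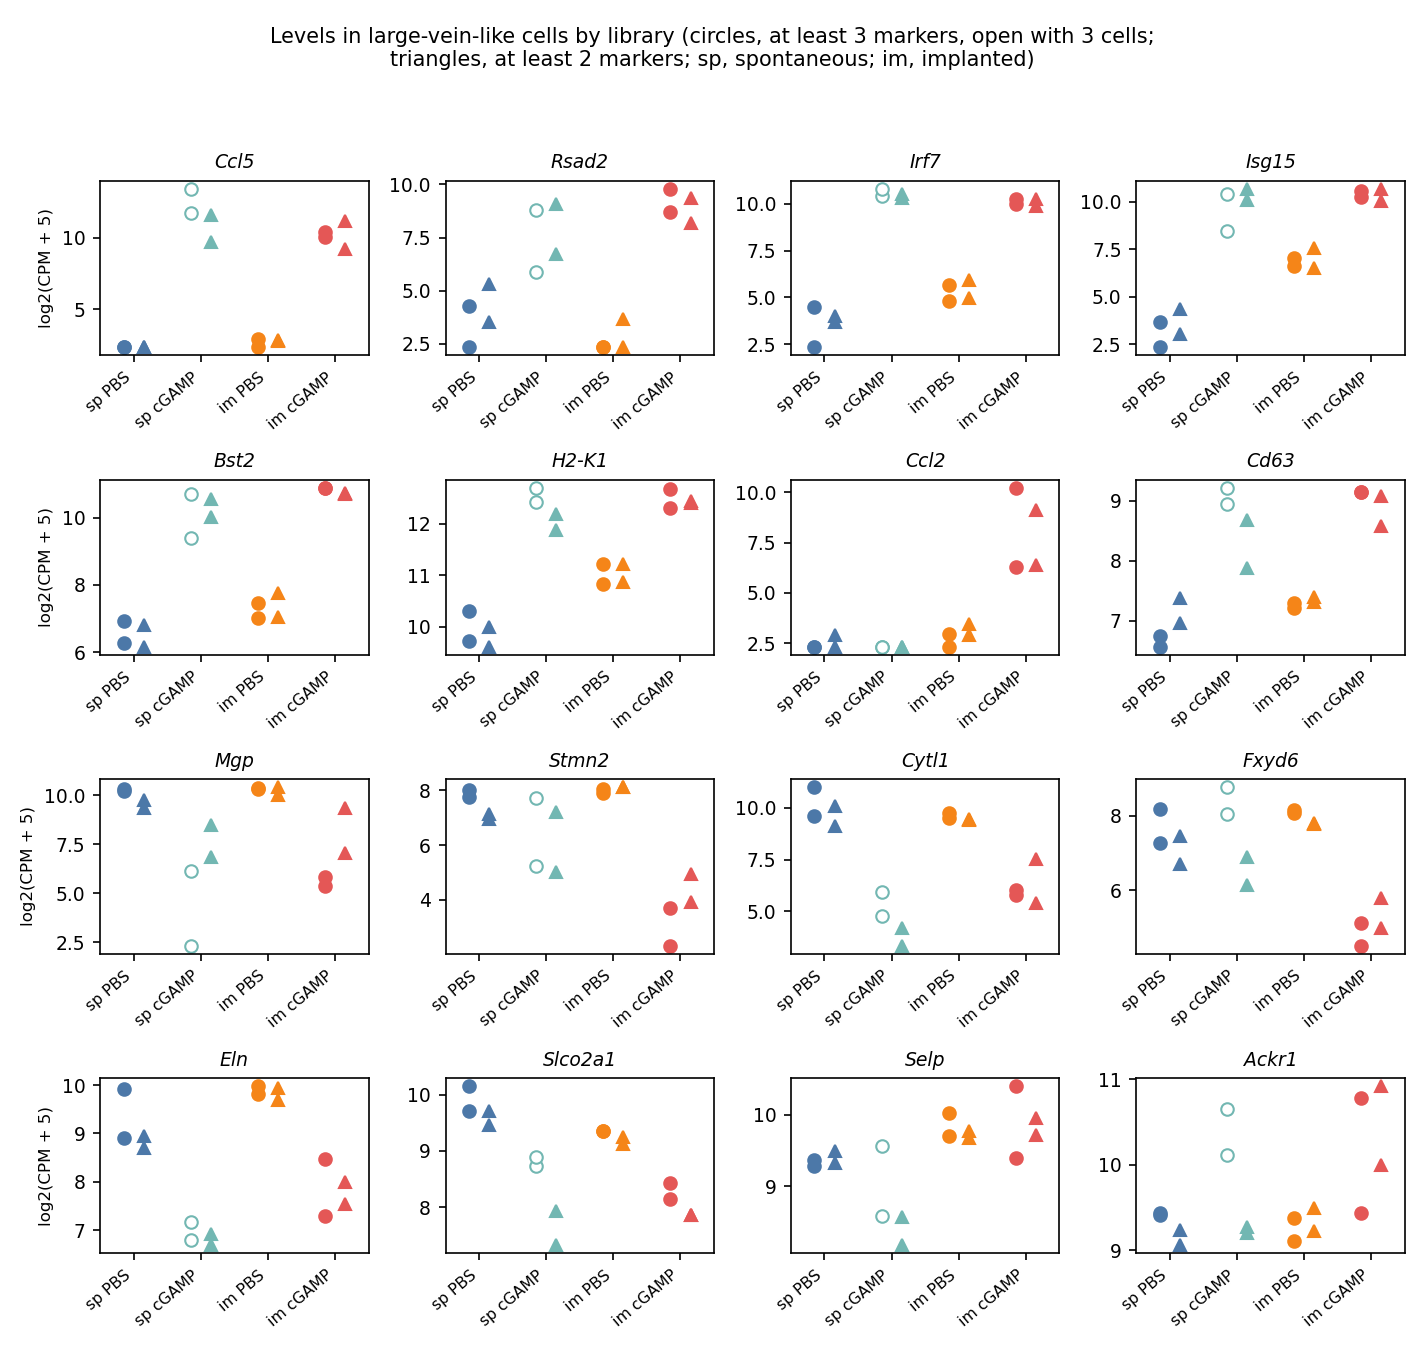
Levels of 16 genes in large-vein-like cells (y axes, log2(CPM + 5), each with its own range) in the 4 groups (x axis), 1 point per library: circles for at least 3 markers, open where the library held 3 cells, and triangles for at least 2 markers. Rsad2, Irf7, Isg15 and Bst2 stood higher in both cGAMP libraries than in both PBS libraries of implanted tumours, Mgp, Stmn2, Cytl1 and Fxyd6 stood lower, and Selp overlapped.

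Whether large-vein-like cells responded differently from other ECs of the same libraries was tested directly in implanted tumours. No gene of 7107 passed (0%), with 483 at an unadjusted p under 0.05 and a smallest adjusted p of 0.468 (limma). Among the genes described above, the difference in response was large for Mgp (log2 fold change -3.96 ± 0.57, adjusted p = 0.47), Cxcl9 (log2 fold change 3.47 ± 0.84, adjusted p = 0.71) and Rsad2 (log2 fold change 3.03 ± 0.71, adjusted p = 0.71). Differences of like size were found for markers of other cell types, the mural genes Rgs5 (3.40 ± 1.16) and Acta2 (3.23 ± 0.99) and the fibroblast gene Dcn (-4.06 ± 1.30). Mgp in other ECs was at 298 and 272 CPM after PBS and 265 and 100.4 CPM after cGAMP. With 2 libraries per group and 3 residual degrees of freedom, a p above the threshold does not show that the responses were alike.

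**Figure D5:**
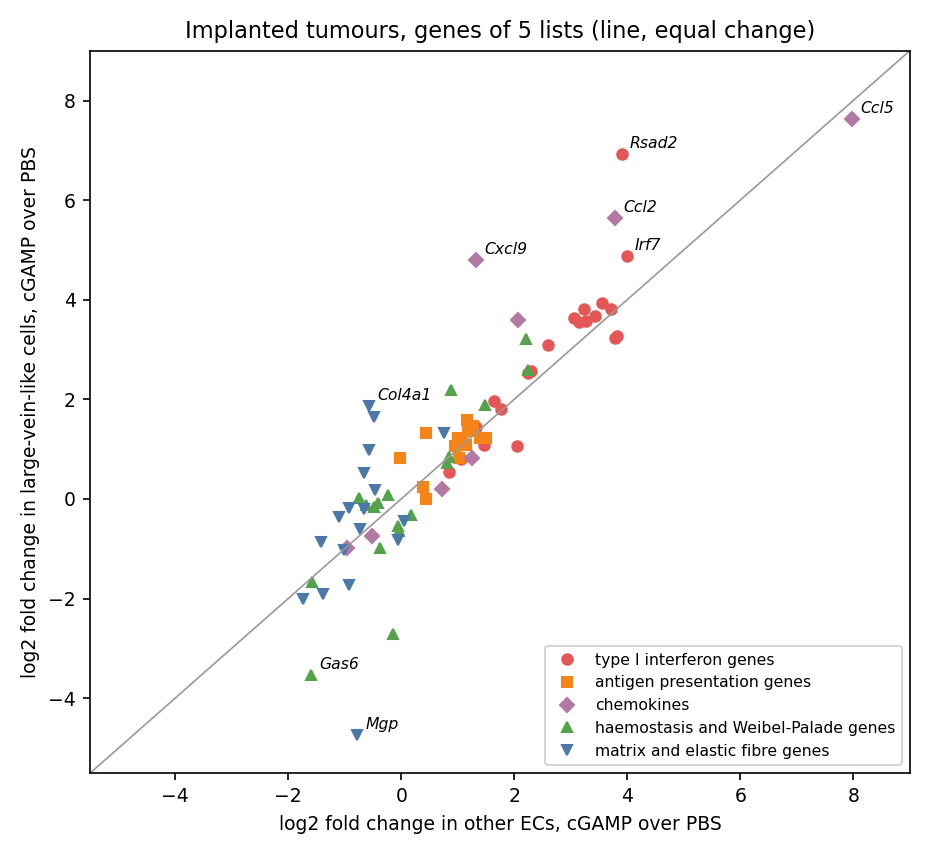
Log2 fold change after cGAMP in implanted tumours for genes of 5 lists, in other ECs (x axis) and in large-vein-like cells (y axis), with the line of equal change. Mgp (-4.75 in large-vein-like cells) lay below the line and Cxcl9 (4.79) and the interferon gene Rsad2 above it, and no single difference from the line passed the test.

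Large-vein-like cells of implanted and spontaneous tumours were compared after PBS. Implanted cells carried more transcripts of 8 of 7107 genes (0.113%), most of them interferon-inducible or class II genes, and fewer of none, with 511 genes at an unadjusted p under 0.05 (limma). The class II invariant chain Cd74 was at 4.11 and 0 CPM in spontaneous and 349 and 101 CPM in implanted tumours (log2 fold change 4.84 ± 0.55, adjusted p = 0.0081), and the class II gene H2-Ab1 at 4.30 and 0 and 236 and 72.5 CPM (log2 fold change 4.32 ± 0.57, adjusted p = 0.023). The groups did not overlap for either gene, as was so for 1507 higher and 1398 lower genes of the 7107 tested. Both genes were named by a rule that asked for this. Ifi27l2a, an interferon-induced gene, was at 0 and 14.4 and 260.5 and 276 CPM (log2 fold change 4.79 ± 0.54, adjusted p = 0.0081) and Isg15 at 7.88 and 0 and 126 and 94.3 CPM (log2 fold change 3.83 ± 0.43, adjusted p = 0.0081). The GTPase gene Iigp1 was at 153 and 80.0 and 1486 and 821 CPM (log2 fold change 3.26 ± 0.34, adjusted p = 0.0081). Of the related GTPases, Irgm1 was higher by 4.17 ± 0.50, and Ifi47, at 0 UMIs in 24 spontaneous cells, was at least 7.58-fold higher. The cytokine gene Il6 was at 25.9 and 10.4 and 253 and 139.9 CPM (log2 fold change 3.15 ± 0.44, adjusted p = 0.029). By list, 1 of 21 interferon genes and 2 of 14 antigen presentation genes were called, with medians of 1.03 and 1.49. The count was 0 without implanted PBS replicate 1 and without either implanted cGAMP library, 14 without implanted PBS replicate 2 and 181 without spontaneous PBS replicate 1. This comparison shares its PBS libraries with the responses to cGAMP.

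The spontaneous cGAMP libraries could be tested only under a looser rule of at least 2 of the 6 markers, which held 312 cells: 33 and 18 after PBS and 13 and 13 after cGAMP in spontaneous tumours, and 72 and 97 after PBS and 51 and 15 after cGAMP in implanted tumours. Of these, 17 and 10 after PBS and 10 and 10 after cGAMP held exactly 2 markers in spontaneous tumours. In implanted tumours 25 and 31 did so after PBS and 38 and 8 after cGAMP. Such cells were a larger part of each cGAMP library than of either PBS library of the same model. The looser set holds every large-vein-like cell as well, so its calls are not independent of those under the rule of 3 markers. Of the 84 genes called in implanted tumours under the rule of 3 markers, 72 (85.7%) were called under the looser rule as well and 84 had the same sign, 35.0% of the 206 genes (2.79% of 7376) called there. Genes named above that were not called under the looser rule were Mgp (log2 fold change -2.01 ± 0.56, adjusted p = 0.085), Rgs5, Fmo1 (log2 fold change -1.25 ± 0.59, adjusted p = 0.39) and Fmo2 of the rule.

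In cells of the looser rule 187 genes (2.54%) were higher and 131 (1.78%) lower after cGAMP in spontaneous tumours. In each treated library 10 of the 13 cells held exactly 2 markers, so most were not large-vein-like cells as defined above. Of 23 interferon genes 22 rose, of 14 antigen presentation genes 12 rose, and none of either list fell, with medians of 3.57 and 2.21 against -0.05 over all genes. Ccl5 was at 0 UMIs in both PBS libraries and at 815 and 3056 CPM after cGAMP (log2 fold change 8.31 ± 0.57, adjusted p = 6.6e-07). Irf7 rose from 11.3 and 7.67 to 1494 and 1289 CPM (log2 fold change 6.60 ± 0.29, adjusted p = 1.2e-08), Isg15 from 15.6 and 3.33 to 1640.2 and 1079 CPM (log2 fold change 6.67 ± 0.40, adjusted p = 2.1e-07) and H2-K1 from 1014 and 779.9 to 3781 and 4675 CPM (log2 fold change 2.23 ± 0.19, adjusted p = 5.2e-06). Venous genes went down in part under this rule, 3 of 12 being called lower and none higher. Selp fell from 713 and 635 to 284 and 372 CPM (log2 fold change -1.04 ± 0.19, adjusted p = 0.0046), as did Slco2a1 and Bgn, with log2 fold changes of -1.97 and -1.13. The cells with at least 3 markers did not show this for Selp, whose treated libraries lay on both sides of the PBS libraries. In those cells Ackr1 stood higher in both treated libraries. Their summed venous markers were 8210 to 9498 CPM after PBS and 8243 to 8353 CPM after cGAMP, the latter from 3 cells per library. Under the looser rule Sele, the E-selectin gene, and Eln fell, with log2 fold changes of -1.50 and -2.02. Cytl1 was at 551 and 1079 CPM after PBS and 5.12 and 13.2 CPM after cGAMP, a log2 fold change of -5.84. The number of calls fell to 175 without spontaneous PBS replicate 1 and 164 without spontaneous PBS replicate 2.

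Some capillary transcripts were higher after cGAMP in the cells of this looser rule. Rgcc went from 91.9 and 114 to 422 and 413 CPM (log2 fold change 1.98 ± 0.34, adjusted p = 0.0033), Gpihbp1 from 97.9 and 369.8 to 1010.4 and 774 CPM (log2 fold change 2.18 ± 0.52, adjusted p = 0.026) and the carbonic anhydrase gene Car4 rose as well (log2 fold change 2.60 ± 0.69, adjusted p = 0.047), 3 of 9 capillary genes with none lower. Markers of other cells moved with them: 9 of 9 mural genes had positive fold changes (median 2.77), of which Notch3 was called, at 2.13 and 20.4 CPM after PBS and 109 and 68.5 CPM after cGAMP (log2 fold change 2.77 ± 0.61, adjusted p = 0.018), as had 3 of 3 fibroblast genes (median 2.26) and 8 of 8 tip-cell genes (median 1.32), none of them called. Their part in the counts above was not tested. Under the looser rule 10 of the 13 cells in each spontaneous cGAMP library held exactly 2 markers. Large-vein-like cells with at least 3 markers held no more than 78.6 CPM of Rgcc and 204 CPM of Gpihbp1 in any of the 8 libraries. Whether levels changed within large-vein cells or other cells met the looser rule was not tested.

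Of the 8 genes higher in implanted tumours after PBS, 8 (100%) were also called under the looser rule, 13.8% of 58 called there (0.786%).

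The responses of the models differed for 2 of 7376 genes (0.0271%) under the looser rule, with 519 at an unadjusted p under 0.05. Ifi27l2a responded less in implanted tumours, by -3.86 ± 0.39 (adjusted p = 8.3e-04, limma), and Iigp1 by -2.60 ± 0.40 (adjusted p = 0.044). Both were already high in implanted tumours after PBS, as given above, and their levels after cGAMP were 826 and 475 and 953 and 694 CPM for Ifi27l2a and 1152 and 1402 and 1842 and 1659 CPM for Iigp1, in spontaneous and implanted libraries. The count was 0 without spontaneous PBS replicate 1, 1 without spontaneous cGAMP replicate 1 or implanted PBS replicate 1, 11 without spontaneous cGAMP replicate 2 and 12 without implanted PBS replicate 2.

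After cGAMP, cells of the looser rule carried more transcripts of several leukocyte adhesion genes in implanted than in spontaneous tumours. There were 30 genes (0.407%) higher and 34 (0.461%) lower. In each spontaneous cGAMP library 10 of the 13 cells held exactly 2 markers. Mean levels in these libraries were 924 CPM for Rbp7 and 713 CPM for Igfbp3. Medians over all libraries were 14.8 and 19.8 CPM under the rule of 3 markers, and 864 and 1677 CPM in other ECs. A difference within large-vein cells and a difference in which cells met the rule cannot be told apart here. Of 13 leukocyte adhesion genes 5 were higher, and of 12 venous genes 3, while none of 23 interferon genes differed by the test (median -0.17). Of 9 chemokines Ccl2 was called higher and none lower, and under the rule of 3 markers summed chemokines were 3295 to 4260 CPM in implanted and 4658 to 11463 CPM in spontaneous libraries, the latter with 3 cells each. Selp was at 284 and 372 CPM in spontaneous and 836 and 988 CPM in implanted tumours (log2 fold change 1.47 ± 0.19, adjusted p = 0.0026), Vcam1 at 115 and 204 and 534 and 738 CPM (adjusted p = 0.0058, limma) and Sele at 29.0 and 26.2 and 116 and 112 CPM (log2 fold change 1.86 ± 0.26, adjusted p = 0.0036). These libraries did not overlap for any of the 3 genes, as was so for 1502 higher and 1529 lower genes of the 7376 tested. Ackr1 was at 584 and 611 and 1932 and 1017 CPM (log2 fold change 1.22 ± 0.25, adjusted p = 0.032), and Ccl2 was at 0 UMIs in spontaneous cells and 80.0 and 557 CPM in implanted cells (log2 fold change 5.45 ± 0.77, adjusted p = 0.0036). The ubiquitin-like Ubd was higher by 4.01 and the endothelial protein C receptor Procr by 1.34 on the log2 scale. Lower in implanted tumours were the retinol binding gene Rbp7 (-4.11), Gpx3 (-3.38), Igfbp3 (-3.38), Ednrb (-3.36) and Rgcc, which was at 422 and 413 and 30.5 and 81.2 CPM (-2.93). In cells with at least 3 markers the treated libraries of the models overlapped for Selp and for Ackr1, at the levels given above. Summed leukocyte adhesion genes in those cells were 5477 to 5570 CPM in implanted and 4723 to 5333 CPM in spontaneous libraries. Under the looser rule the call for Sele was lost, and its direction turned to -0.26, when cells were thinned to 2000 UMIs. The number of calls was 27 without spontaneous PBS replicate 1, 26 without spontaneous PBS replicate 2, 120 without spontaneous cGAMP replicate 2, 11 without implanted cGAMP replicate 1 and 35 without implanted cGAMP replicate 2.

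The response of some genes differed between cells of the looser rule and the other ECs of the same libraries. Cells with exactly 2 markers were a larger part of the looser set after cGAMP than after PBS. Their part in the differences below was not tested. The differences called were negative, meaning a greater fall or a smaller rise, but this depended on the setting: over both models 12 genes were called higher and 39 lower with a pseudocount of 20 CPM, and 3 higher and 11 lower with the replicate block. In spontaneous tumours 2 of 7376 genes (0.0271%) were called, Myrip and Ch25h, with 921 at an unadjusted p under 0.05, and averaged over both models 11 genes (0.149%), with 961. In implanted tumours alone none was called under this rule. Myrip, whose product links Rab27a on secretory granules to the actin cytoskeleton, was at 54.7 and 51.1 CPM after PBS and 0 UMIs after cGAMP in spontaneous tumours, and at 27.6 and 52.4 and 11.9 and 14.2 CPM in implanted tumours. Other ECs held 1.60 to 8.15 CPM of it in the 8 libraries. The difference in response was -3.16 ± 0.29 in spontaneous tumours (adjusted p = 0.016, limma) and -2.09 ± 0.21 over both models. Fndc1, a fibronectin type III domain gene, went from 113 and 149 to 17.0 and 5.13 CPM in implanted tumours, against 8.74 and 7.27 and 10.5 and 8.43 CPM in other ECs (difference over both models -3.22 ± 0.33, adjusted p = 0.014). The metallothionein gene Mt1 went from 399 and 305 to 84.0 and 60.7 CPM in spontaneous and from 208 and 577 to 101 and 37.5 CPM in implanted tumours (difference over both models -2.42 ± 0.28). No call in spontaneous tumours was kept when any 1 library was left out, and the 11 calls over both models became 0 in 6 of 8 such fits and 8 in the others, those without spontaneous PBS replicate 1 and without spontaneous cGAMP replicate 2.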

How the data were processed

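Endothelial cells were sorted by FACS from mouse mammary tumours and sequenced with the 10x Chromium 3′ v3 kit in 8 libraries, 2 per group. Per the labels, the submitters used Cell Ranger 3.0.0, Seurat 3.1.1 and build mm10. The authors deposited 1 matrix per library of natural log values, ln(1 + UMIs × 10000 / total UMIs of the cell), after keeping cells with at least 500 genes and at most 10% mitochondrial reads and genes found in at least 3 cells. UMIs were worked back from these values, of which 100% came out whole within 0.01. No authors' annotation of cells was used. No column was left out.

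Large-vein-like cells were chosen by the marker rule of the report, and the members, gene lists and tests were chosen with earlier results of these data known. Other ECs, artery-like cells and venule-like cells met the same limits without meeting the rule. Cells are not replicates, so the level of a gene was the mean CPM over the cells of a library, and libraries with fewer than 5 such cells were left out of a fit. log2(CPM + 5) was tested with limma 3.58.1 in R 4.3.3 (moderated with a mean-variance trend, group means, no covariate) for genes that reached 20 CPM in 2 or more libraries. P-values are two-sided and were adjusted by Benjamini-Hochberg over all genes tested, with calls under 0.05, and ± marks the SE of a fold change and the SD of a mean. Differences in response were tested on the difference between large-vein-like cells and other ECs within each library. Since the spontaneous cGAMP libraries held 3 cells each, planned comparisons with them were made under a rule of at least 2 markers.

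Genes were named as the 6 largest changes in each direction among called genes with at least 50 CPM in the higher group and libraries that did not overlap (4 for differences in response, and all where fewer were called), the 12 largest differences from other ECs in each direction, and members of the lists described. Some genes that met this rule are not reported here. Genes named beside these were chosen after their values were seen. The scripts were tested on simulated data. Coordinates are from GENCODE vM21 (GRCm38), the build the labels name. Promoters were matched by symbol. Counts of 0 were given a limit of 3 UMIs over the cells of the group, and intervals are Wilson 95% intervals from Python 3.11.15 with scipy 1.17.1. Alternatives covered the pseudocount, the filter, the scaling, the marker number, thinning, weights, a block for the replicate number and leaving out each library.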

Additional observations from a re-analysis of the deposited data

Results flagged for a closer look

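In cells of the looser rule of at least 2 markers, the responses to cGAMP differed between implanted and spontaneous tumours by a test of the difference itself for Ifi27l2a (log2 -3.86 ± 0.39, adjusted p = 0.00083, limma) and Iigp1 (-2.60 ± 0.40, adjusted p = 0.044). Both had higher PBS levels in implanted tumours, as given in the report.

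The response of large-vein-like cells differed from that of other ECs of the same libraries in spontaneous tumours for Myrip (-3.16 ± 0.29) and Ch25h (-2.69 ± 0.26), both at an adjusted p of 0.016. Ch25h, which makes the antiviral oxysterol 25-hydroxycholesterol, was at 30.3 and 22.3 CPM after PBS and 5.12 and 6.23 CPM after cGAMP in cells of the looser rule, and at 9.95 and 9.63 and 27.9 and 27.8 CPM in other ECs.

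Averaged over both models, the response of cells of the looser rule was below that of other ECs for 11 genes, in which the adjusted p (limma) lay between 0.014 and 0.044. The values were -3.22 for Fndc1, -2.78 for the nuclear alarmin Il33, -2.46 for the glutamate receptor subunit Gria3, -2.42 for Mt1, -2.09 for Myrip, -2.06 for Setbp1, -1.99 for Slfn2, -1.94 for the matrix gene Comp, -1.79 for the peptidase Mme, -1.77 for Ch25h and -1.72 for the Wnt enhancer Rspo3. Il33 was at 25.5 and 26.6 and 9.65 and 22.9 CPM after PBS and at 0 and 3.11 and 0 and 0 CPM after cGAMP, in spontaneous and implanted tumours.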

How the results depend on the processing

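Calls in implanted tumours after cGAMP (84) became 21 with a pseudocount of 1 CPM, 4 with no filter, 34 from summed UMIs, 180 with weights by cell number, 45 without the cells with the most UMIs, 1 with cells thinned to 2000 UMIs (which moved the median of all genes to -0.55), 206 with at least 2 and 1 with at least 4 markers, and 4 to 234 without 1 library. For implanted against spontaneous tumours after PBS (8) these settings gave 2, 0 and, from weights, 23, then 0 thinned, 58 and 0 with at least 2 and 4 markers, and 0 to 181 without 1 library. The difference of large-vein-like cells from other ECs in implanted tumours was 0 in all settings, 0 to 0 without 1 library.

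Under at least 2 markers, calls in spontaneous tumours (318) became 183 with no filter, 33 thinned and 164 to 448 without 1 library. Implanted against spontaneous after cGAMP (64) became 0 with no filter, 102 from summed UMIs, 0 thinned and 11 to 120. The difference of the 2 responses (2) became 1 with a pseudocount of 1, a filter at 50 CPM, median-of-ratios scaling, weights or without the cells with the most UMIs, 0 with no filter or thinned, and 0 to 12. Differences from other ECs in spontaneous tumours (2) became 4 and 5 with pseudocounts of 1 and 20, 0 with no filter, 5 with a filter at 50 CPM, 6 from summed UMIs, 1 without the cells with the most UMIs, 0 thinned and 0 to 0; over both models (11) they became 7, 51, 7 from summed UMIs, 0 thinned and 0 to 8.

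Replicate numbers did not pair the samples (correlations of deviations from -0.04 to 0.07). With the replicate block the counts were 114, 18, 0, 379, 11, 90, 0 and 14, in the order implanted, after PBS, implanted against other ECs, spontaneous, difference of responses, after cGAMP, spontaneous against other ECs and both models.

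Mean shares after PBS and cGAMP, in spontaneous and then in implanted tumours, were 0.832, 0.315, 3.91 and 0.520% with at least 4 markers, 3.69, 2.05, 9.74 and 3.90% with at least 2, 1.36, 0.394, 4.91 and 0.856% of all deposited cells, and 0.782, 0.0791, 2.14 and 0.0538% thinned.

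Of 2501 values of 141 gene results, 1802 kept direction and call, 696 lost the call and 3 reversed, all when thinned: Sele in spontaneous tumours (0.21), Sele after cGAMP (-0.26) and Ch25h against other ECs in spontaneous tumours (0.39). The causes were not tested. Leaving out cells with at least 3 arterial markers gave no value, nor did leaving out cells with markers of other cell types or taking at least 4 markers where too few cells were left. Thinning leaves few UMIs per cell and limits low genes most.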
